A study of Mus musculus with 18 samples.

Results

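Reg lectins and epithelial antimicrobial proteins are secreted or surface defence proteins of the gut lining. A set of 10 genes of this kind was followed in the mouse colon: the Reg lectins Reg3g, Reg3b and Reg4, the goblet cell and colonocyte products Retnlb and Lypd8, the iron-binding protein Lcn2 and the acute phase protein Saa3, the WAP domain proteins Slpi and Wfdc2, and the antibody carrier Pigr. They were chosen by name, with earlier results of these data known, and all 10 were found by symbol among the 47729 genes of the deposited count table.

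The RNA-Seq libraries were made from colon tissue of 9 mice in 3 groups of 3. The study used them to ask how the claudin-2 transgene acts in colitis-associated cancer. Control WT mice (mice 1 to 3) were wild type and labelled as controls. AOM-DSS WT mice (mice 4 to 6) were wild type and had received the carcinogen azoxymethane (AOM, 1 dose of 10 mg/kg) and 3 cycles of 2.5% dextran sulfate sodium (DSS), which injures the colonic epithelium. AOM-DSS Claudin-2TG mice (mice 7 to 9) received the same agents and are labelled as carrying a transgene for claudin-2, a pore-forming tight junction protein, which the study names Villin-Cldn2, after a promoter active in intestinal epithelium. All 3 groups had a C57BL/6 background, and transgenic mice came from matings with wild-type mice that also gave littermate controls, per the study's methods. No transgenic mice without AOM-DSS were analysed here, so an effect of the transgene on untreated colon cannot be told apart from its effect under AOM-DSS. The age and sex of single mice are not given in the sources used here, although the study's methods describe its mice as matched for both, and each library is taken as 1 mouse although the labels do not name animals, so p-values measure the spread between these libraries.

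The gut epithelium is separated from dense bacterial populations by mucus, secreted antibody and proteins that kill bacteria or keep them away from the cell surface. Reg3 lectins bind bacterial cell walls and are induced through interleukin-22 and STAT3 signalling. Lipocalin-2 traps the siderophores by which bacteria take up iron and is a widely used marker of colitis. The polymeric immunoglobulin receptor carries IgA across the epithelium, and Lypd8 keeps flagellated bacteria off the colonic surface.

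Each library was sequenced on 2 lanes, which were summed, to give totals of 14142711 to 22262546 counts per mouse. Levels are given as CPM, the read count relative to the library size after TMM scaling, and a level of 3 counts corresponded to 0.135 to 0.212 CPM. Among the libraries, Control WT mouse 1 stood apart in its sex-linked genes, with Xist at 214 CPM and 4 Y-linked genes summing to 0.498 CPM, whereas those 4 genes summed to 146 to 189 CPM in the other mice, so this library did not match the others in sex. Counts without mouse 1 are given with each comparison that used it. AOM-DSS WT mouse 4 stood apart from the others of its group by its low levels of several genes of the set. Fits without it are therefore chosen on the measured genes themselves, and they are given as a description, beside the fits without each other mouse, and support no call. Cldn2 checked the genotype label. It read 191, 259 and 245 CPM in Control WT, 119, 137 and 132 CPM in AOM-DSS WT and 208, 218 and 251 CPM in AOM-DSS Claudin-2TG. It was therefore higher in transgenic than in wild-type AOM-DSS mice (log2 fold change 0.78, SE 0.12, adjusted p = 0.0103 by edgeR), but not shown to exceed Control WT (−0.03, adjusted p = 0.897), whose range held all 3 transgenic mice. Counts of the gene do not separate transcripts of the transgene from those of the mouse's own gene.

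**Figure D1:**
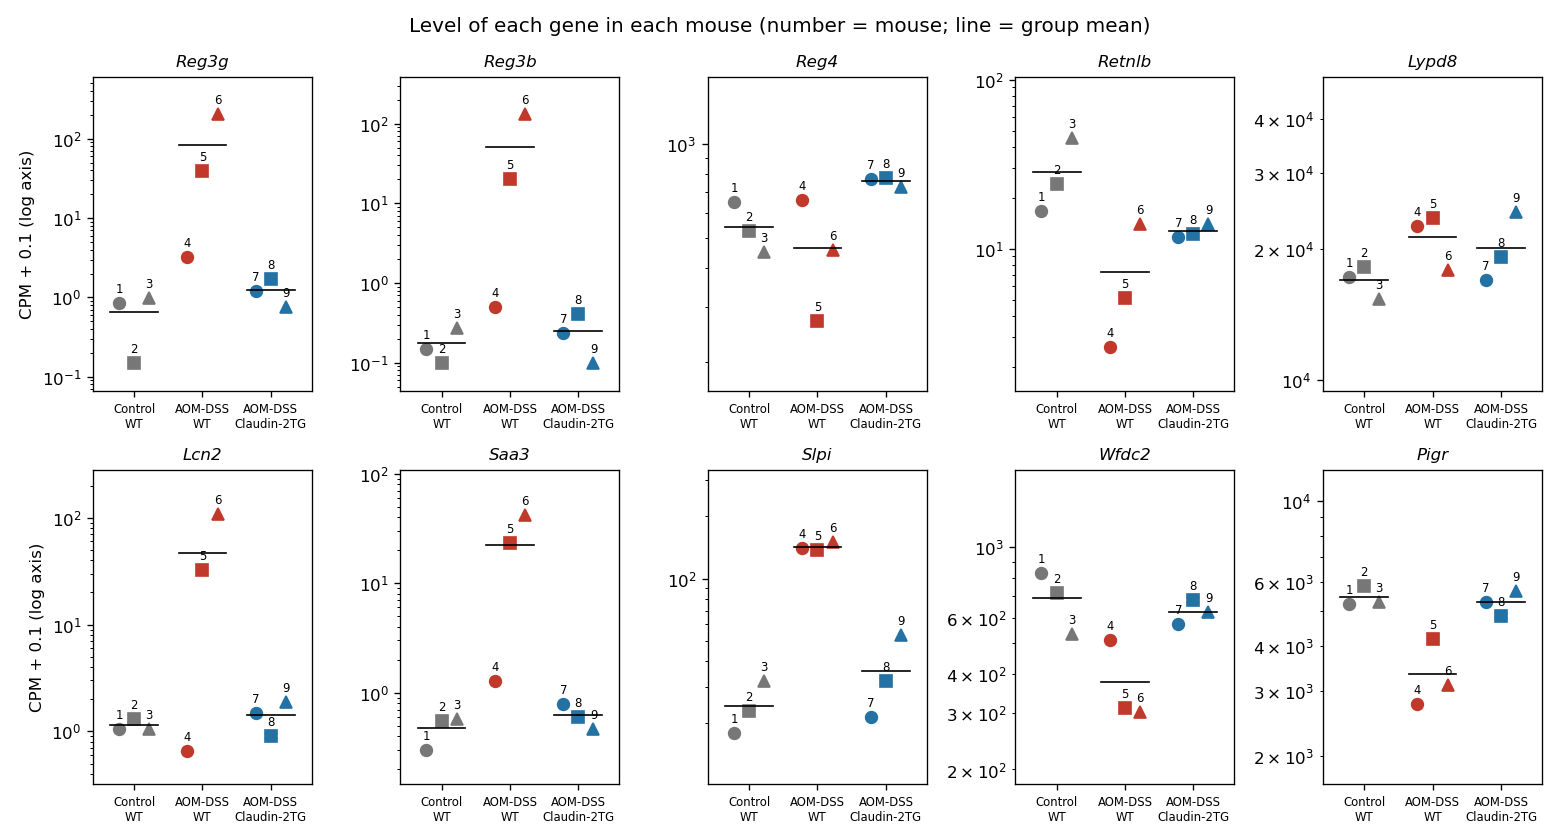
Level of the 10 genes in each of the 9 mice, as CPM + 0.1 on a log axis, with the group mean as a line and the mouse number beside each point. Reg3g, Reg3b, Lcn2 and Saa3 were high in AOM-DSS WT mice 5 and 6 and much lower in mouse 4, while Slpi lay between 137 and 150 CPM in all 3 of these mice.

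The levels spanned several orders of magnitude. Per kilobase of exon, Lypd8 led all genes of the table in each group, with 13200 ± 1110 CPM per kb in Control WT, 16700 ± 2410 in AOM-DSS WT and 15700 ± 2940 in AOM-DSS Claudin-2TG (SD, n = 3). It took 1.73%, 2.25% and 1.90% of all counts in the 3 groups. In Control WT mice the order per kilobase went on with Pigr (1350 CPM per kb), Wfdc2 (608), Reg4 (531), Retnlb (40.9), Slpi (20.5), Saa3 (0.709), Lcn2 (0.395), Reg3g (0.263) and Reg3b (0.0652). Neighbours whose mice overlapped, and so could not be ordered, were Wfdc2 with Reg4, Retnlb with Slpi, and Saa3 with Lcn2, Lcn2 with Reg3g and Reg3g with Reg3b. The set therefore held a constitutive tier of 4 genes and a tier of 4 genes at low levels, at most 1.21 CPM in any Control WT mouse, with Retnlb and Slpi between. In AOM-DSS WT mice the lower tier stood at 44.8 CPM per kb for Reg3b, 41.5 for Saa3, 39.4 for Reg3g and 18.0 for Lcn2, with overlapping mice, and Retnlb came last at 10.3, overlapping Lcn2. The place of Saa3 depends on its length. The count table gives it 531 bases of exon, whereas the GENCODE vM21 annotation gives 2606, with which it stood at 0.144 CPM per kb in Control WT, 8.46 in AOM-DSS WT, below Retnlb, and 0.200 in AOM-DSS Claudin-2TG mice. This alternative was chosen after seeing the data, and the lengths of the other 9 genes differed by at most 1 base. In AOM-DSS Claudin-2TG mice Reg4 stood above Wfdc2 without overlap (742 against 549 CPM per kb), and Saa3 (0.982), Reg3g (0.534), Lcn2 (0.503) and Reg3b (0.129) were again the lowest.

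Reg3g and Reg3b encode secreted C-type lectins that act mainly on Gram-positive and Gram-negative bacteria, respectively. Their genes lie near each other on chromosome 6, Reg3g at chr6:78466269-78468872 on the minus strand and Reg3b at chr6:78370657-78373466 on the plus strand (GRCm38). Reg3g read 0.746, 0.0502 and 0.869 CPM in Control WT mice. In AOM-DSS WT mice it read 3.10, 39.1 and 207 CPM. In AOM-DSS Claudin-2TG mice it read 1.10, 1.62 and 0.665 CPM. Every AOM-DSS WT mouse was thus above every mouse of the other groups, but mouse 4 was far below mice 5 and 6. Against Control WT the fit gave a log2 fold change of 7.21 (SE 1.70, adjusted p = 0.0378), a call that is given as a description, since only 2 of 3 Control WT mice reached the filter on low counts and Reg3g was tested through the AOM-DSS WT mice. The difference between AOM-DSS Claudin-2TG and AOM-DSS WT was not called (−6.16, 95% interval −10.05 to −2.28, adjusted p = 0.0678 by edgeR). The call against Control WT was lost in 5 of the 6 fits that left out 1 mouse (adjusted p = 0.06 to 0.124), with no filter (0.148) and in either lane alone (0.0536 and 0.0579). Without mouse 6 the log2 fold changes were 5.23 (adjusted p = 0.0658) and −4.17 (0.0907), and without mouse 4 they were 7.78 (0.0124) and −6.71 (0.0222).

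Reg3b had the same order of groups from a lower start. It had 1, 0 and 4 counts in Control WT mice, at most 0.174 CPM. In AOM-DSS WT mice it had 8, 456 and 1983 counts, which were 0.406, 20.2 and 133 CPM. In AOM-DSS Claudin-2TG mice it had 2, 6 and 0 counts, at most 0.304 CPM. All AOM-DSS WT mice were again above all others, although mouse 4 was close to the highest transgenic mouse. Reg3b did not pass the filter on low counts with 9 mice and was not tested by the model. A two-sided exact permutation test over mice gave p = 0.1 for AOM-DSS WT against each other group, the smallest value that 3 mice against 3 allow. In some fits that left out 1 mouse it passed the filter, through the AOM-DSS WT mice alone, so those fits are not used as tests of it.

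The sequences just upstream of the RefSeq starts of Reg3b, Reg3g, Saa3 and Slpi are shown because these are the 4 genes of the set for which every AOM-DSS WT mouse was above every other mouse. Lcn2, also high in mice 5 and 6 but low in mouse 4, was searched in the same way. Of the 10 genes, 9 have an entry in the RefSeq promoter table (GRCm38.p6). The stretch from 178 to 25 bases before the RefSeq start was used, 154 bases, since it holds no annotated exon of Reg3b or Reg3g. Both strands were searched for the STAT motif TTCNNNGAA, the NF-kB motif and the C/EBP motif TTNNGNAA, and the capitals mark the matches. The Reg3b stretch is chr6:78370707-78370860 on the plus strand, the Reg3g stretch chr6:78468899-78469052, the Saa3 stretch chr7:46715701-46715854 and the Slpi stretch chr2:164356532-164356685, these 3 on the minus strand. The Reg3b and Slpi stretches lie within the span of their genes, since longer annotated transcripts start further out.
Reg3b: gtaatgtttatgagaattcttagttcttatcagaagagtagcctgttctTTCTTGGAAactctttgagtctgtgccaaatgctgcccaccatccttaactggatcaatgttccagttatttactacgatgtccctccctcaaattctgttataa
Reg3g: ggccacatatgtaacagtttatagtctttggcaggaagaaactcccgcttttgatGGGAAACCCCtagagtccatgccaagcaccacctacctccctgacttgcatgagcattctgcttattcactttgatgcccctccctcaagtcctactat
Saa3: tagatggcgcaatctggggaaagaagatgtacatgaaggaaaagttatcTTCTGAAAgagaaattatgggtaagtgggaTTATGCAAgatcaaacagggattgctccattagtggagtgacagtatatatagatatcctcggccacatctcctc
Slpi: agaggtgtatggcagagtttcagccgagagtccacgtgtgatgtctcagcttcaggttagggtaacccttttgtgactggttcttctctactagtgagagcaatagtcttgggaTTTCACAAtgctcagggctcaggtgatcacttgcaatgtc

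The Reg3b stretch held 1 STAT match, 129 to 121 bases before the start, and the Reg3g stretch held 1 NF-kB match at 123 to 114 bases, so the matches lay at nearly the same distance but differed in kind. Saa3 had 2 C/EBP matches, at 129 to 122 and 99 to 92 bases, and Slpi had 1, at 64 to 57 bases. Among the other entries Wfdc2 had a C/EBP match and Reg4, Lypd8, Lcn2 and Pigr had no match to any of the 3 motifs. Of the 32851 stretches in the whole table, 4.20% held the STAT motif, 2.44% the NF-kB motif and 24.3% the C/EBP motif. A match describes letters, not binding. Aligned end to end, the Reg3b and Reg3g stretches were identical at 62.3% of 159 positions, against 50.8% for Reg3b with Saa3 and 50.6% for Reg3g with Saa3. The transcripts of Reg3b and Reg3g were 68.6% identical over 825 aligned positions and shared no stretch of 50 bases, with each other or with any other gene.

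Reg4, a related lectin of goblet and enteroendocrine cells, did not follow the Reg3 genes. Its level was 650, 525 and 452 CPM in Control WT and 659, 272 and 458 CPM in AOM-DSS WT mice. In AOM-DSS Claudin-2TG mice it was 771, 775 and 728 CPM. The transgenic mice were above all others and lay within 1.06-fold of each other, whereas the AOM-DSS WT mice spanned 2.43-fold. Against Control WT the transgenic mice were higher (log2 fold change 0.49, SE 0.13, adjusted p = 0.0369). This call was lost when the fit took all 9 mice (adjusted p = 0.368), when libraries were scaled by size alone (0.0785) and when 1 mouse was left out in 5 of 6 cases. Against AOM-DSS WT the difference was 0.69 (95% interval 0.03 to 1.34, adjusted p = 0.192), and it ran from 0.40 without mouse 5 (adjusted p = 0.261) to 1.04 without mouse 4 (0.00807), the 1 fit of 6 that called it. The other Reg family genes Reg1 and Reg3a had at most 5 counts in any mouse, and Reg2 and Reg3d had none.

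Retnlb encodes RELM-beta, a goblet cell protein that kills Gram-negative bacteria. It read 16.6, 24.0 and 44.8 CPM in Control WT mice, 2.54, 5.04 and 13.9 CPM in AOM-DSS WT mice and 11.6, 12.2 and 14.0 CPM in AOM-DSS Claudin-2TG mice. All 6 AOM-DSS mice were below all 3 Control WT mice, and mouse 6, the highest for Reg3g, overlapped the transgenic mice. The log2 fold change against Control WT was −1.99 (SE 0.65, adjusted p = 0.0843) in wild-type and −1.17 (SE 0.35, adjusted p = 0.0897) in transgenic mice, neither of which was called by edgeR. DESeq2 called the second (adjusted p = 0.000853) and the fit of all 9 mice the first (0.0397). Leaving out 1 mouse took the first from −1.51 without Control WT mouse 3 (adjusted p = 0.211) to −2.88 without mouse 6 (0.0368). It took the second from −0.68 without Control WT mouse 3 (adjusted p = 0.0724) to −1.44 without Control WT mouse 1 (0.0185), and in neither comparison did another omission give a call. Between the AOM-DSS groups the difference was 0.81 (95% interval −0.46 to 2.08, adjusted p = 0.451), and without mouse 6 it was 1.72 (0.0231).

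Lypd8 is a GPI-anchored protein of the colonic surface. It read 17300, 18200 and 15400 CPM in Control WT mice, 22700, 23600 and 17900 CPM in AOM-DSS WT mice and 17000, 19200 and 24400 CPM in AOM-DSS Claudin-2TG mice. The groups overlapped in every comparison. The log2 fold change was 0.36 in AOM-DSS WT against Control WT (adjusted p = 0.155), −0.11 in AOM-DSS Claudin-2TG against AOM-DSS WT (95% interval −0.53 to 0.32) and 0.26 in AOM-DSS Claudin-2TG against Control WT (adjusted p = 0.254). A transgene effect beyond 0.53 in size on the log2 scale lay outside this interval.

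Lcn2 encodes lipocalin-2, made by injured epithelium and by neutrophils. It was low in Control WT mice, at 0.946, 1.21 and 0.955 CPM. In AOM-DSS WT mice it read 0.559, 32.5 and 108 CPM. In AOM-DSS Claudin-2TG mice it read 1.38, 0.811 and 1.77 CPM. Mouse 4 was the lowest of all 9 mice and mice 5 and 6 the highest, so the groups overlapped. The log2 fold change was 5.53 (SE 1.56, adjusted p = 0.0592) in AOM-DSS WT against Control WT and −5.20 (95% interval −9.13 to −1.28, adjusted p = 0.109) in AOM-DSS Claudin-2TG against AOM-DSS WT, and neither was called by edgeR. DESeq2 called both (adjusted p = 0.0018 and 0.00561), as did the fit of all 9 mice (0.0317 and 0.0488), and with no filter the adjusted p were 0.207 and 0.31. Without mouse 6 the log2 fold changes were 4.01 (adjusted p = 0.138) and −3.65 (0.226). Without mouse 4 they were 6.11 (adjusted p = 0.00378) and −5.79 (0.00409), the only omission in either comparison that gave a call.

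Saa3, an acute phase protein made locally by epithelium and macrophages, was at 0.199, 0.452 and 0.478 CPM in Control WT mice. It was at 1.17, 23.2 and 41.8 CPM in AOM-DSS WT and at 0.689, 0.507 and 0.369 CPM in AOM-DSS Claudin-2TG mice. The AOM-DSS WT mice were above all others, mouse 4 by the least. Against Control WT the fit gave a log2 fold change of 5.86 (SE 1.31, adjusted p = 0.0325), a call that is given as a description, since no Control WT mouse reached the filter on low counts and Saa3 was tested through the AOM-DSS WT mice alone. The difference of the transgenic mice from AOM-DSS WT missed the threshold (−5.39, 95% interval −8.49 to −2.30, adjusted p = 0.0501 by edgeR), and there 1 of 3 transgenic mice reached the filter. The call against Control WT was lost in 5 of the 6 fits that left out 1 mouse (adjusted p = 0.0637 to 0.111) and with no filter (0.129). The difference from AOM-DSS WT was called by DESeq2 (adjusted p = 0.000161) and was not called in the 5 of 6 omissions that kept mouse 4 (0.106 to 0.172). Without mouse 6 the log2 fold changes were 5.0 (adjusted p = 0.0722) and −4.51 (0.106), and without mouse 4 they were 6.42 (0.000116) and −5.95 (1.55e-05). In the SAA family, Saa1 and Saa2 did not share this pattern. Saa1 read 936 to 1580 CPM in Control WT and 911 to 1180 CPM in AOM-DSS WT mice (log2 fold change −0.38, adjusted p = 0.268), and Saa2 was called higher only in AOM-DSS Claudin-2TG against Control WT (0.55, adjusted p = 0.00693). Of the distinct 50-base stretches of the annotated Saa3 transcripts, 4.15% also occurred in other genes, 9 stretches in the SAA family.

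Slpi, the secretory leukocyte protease inhibitor, gave the most even response. Its level was 17.9, 22.8 and 32.0 CPM in Control WT mice, 141, 137 and 150 CPM in AOM-DSS WT mice and 21.4, 31.8 and 53.3 CPM in AOM-DSS Claudin-2TG mice. All 3 AOM-DSS WT mice, mouse 4 included, lay within 1.10-fold of each other and above every other mouse. Slpi rose in AOM-DSS WT against Control WT (log2 fold change 2.58, SE 0.20, adjusted p = 0.00159), a 5.99-fold change. It was lower in AOM-DSS Claudin-2TG than in AOM-DSS WT mice (−2.03, SE 0.30, adjusted p = 0.00999), a 4.09-fold difference. Leaving out transgenic mouse 8 took the latter to −1.95 with an adjusted p of 0.063, and all other single-mouse fits kept both calls. Between AOM-DSS Claudin-2TG and Control WT the groups overlapped (0.55, 95% interval −0.36 to 1.46, adjusted p = 0.411).

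Wfdc2, the other WAP domain protein, lay the other way. It read 829, 717 and 534 CPM in Control WT mice, 512, 313 and 302 CPM in AOM-DSS WT mice and 571, 684 and 625 CPM in AOM-DSS Claudin-2TG mice. The AOM-DSS WT mice were below all mice of both other groups. The log2 fold change was −0.86 (SE 0.25, adjusted p = 0.0548) against Control WT and 0.71 (SE 0.21, adjusted p = 0.0731) for the transgenic mice against AOM-DSS WT, neither called by edgeR on the 6 mice. Other fits of all mice did call it: the first by DESeq2 (adjusted p = 0.00593), with size scaling alone (0.0478) and with 9 mice in the fit (0.0236), and the second by DESeq2 (0.0146) and with no filter (0.0352). Leaving out 1 mouse took the first from −0.71 (adjusted p = 0.157) to −1.15 (0.00484) and the second from 0.58 (0.208) to 1.02 (0.000854), and in both only the fit without mouse 4, the highest of its group, gave a call.

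Pigr carries dimeric IgA from the lamina propria into the lumen. It read 5200, 5840 and 5290 CPM in Control WT mice, 2770, 4180 and 3120 CPM in AOM-DSS WT mice and 5280, 4840 and 5660 CPM in AOM-DSS Claudin-2TG mice. The AOM-DSS WT mice were below every other mouse, and mouse 4 was here the lowest. Pigr fell in AOM-DSS WT against Control WT (log2 fold change −0.67, SE 0.17, adjusted p = 0.0369). Its difference between AOM-DSS Claudin-2TG and AOM-DSS WT was 0.63 (95% interval 0.23 to 1.03, adjusted p = 0.0587 by edgeR), not called there but called by DESeq2 (0.00512), with no filter (0.0246), with 9 mice in the fit (0.019) and without mouse 5 (0.0348). That between AOM-DSS Claudin-2TG and Control WT was −0.04 (95% interval −0.26 to 0.17). The call in wild-type mice was lost when any 1 Control WT mouse or mouse 6 was left out, with adjusted p of 0.0961 to 0.134.

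**Figure D2:**
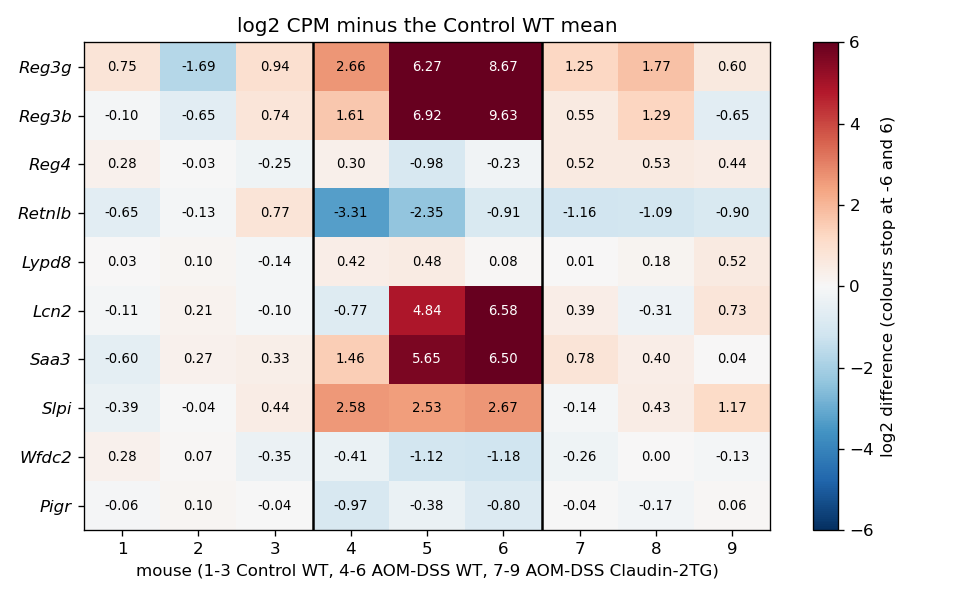
Difference in log2 CPM of each mouse from the Control WT mean, for the 10 genes, with the value written in each cell and colours that stop at −6 and 6. In mice 5 and 6 Reg3g stood at 6.27 and 8.67 and Lcn2 at 4.84 and 6.58, whereas mouse 4 read 2.66 and −0.77 and Slpi was at 2.53 to 2.67 in all 3 mice.

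To find how AOM-DSS changed the set in wild-type colons, AOM-DSS WT and Control WT mice were compared. Reg3g, Saa3 and Slpi were called higher and Pigr was called lower, and the other 5 of the 9 genes tested were not called. Of all 15437 genes tested, 8.04% were called higher and 6.92% lower. Reg3g and Saa3 were tested only because the AOM-DSS WT mice, in which they are high, passed the filter on low counts, so the counts and the median of the set are a description. Of the 7 genes that passed in both groups, Slpi was called higher and Pigr lower. An unadjusted p under 0.05 was found for 7 of the 9, where 32.6% of all genes had one. Counted by mice, 3 of the 9 genes tested (Reg3g, Saa3 and Slpi) had all AOM-DSS WT mice above all Control WT mice, as had Reg3b, which was not tested, where this held for 17.7% of all genes tested, and 3 (Retnlb, Wfdc2 and Pigr) had all of them below, against 20.3%. The median log2 fold change of the 9 tested genes was 0.36, beside 0.02 over all genes. DESeq2 called 6 (Lcn2 and Wfdc2 added), where it called 20.9% of all genes. Without mouse 4, 7 genes were called (Lcn2, Reg3b, Reg3g, Saa3 and Slpi higher, Pigr and Wfdc2 lower), and 25.7% of all genes. Without mouse 5, Pigr and Slpi were called, where 7.90% of all genes were, and without mouse 6, Retnlb and Slpi, where 6.72% were. Without Control WT mouse 1, 2 or 3, Slpi alone was called, where 3.96%, 0.847% and 2.55% of all genes were.

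The transgene was examined by comparing AOM-DSS Claudin-2TG with AOM-DSS WT mice. Of 9 genes tested, 1 was called, Slpi, which was lower, where 7.35% of 14888 genes were called lower. By edgeR no gene of the set was called higher, where 2.19% of all genes were, and 7 of the 9 had an unadjusted p under 0.05, where 23.5% of all genes had one. DESeq2 called 6 of them (Lcn2, Reg3g, Saa3 and Slpi lower, Pigr and Wfdc2 higher) and 13.9% of all genes. All transgenic mice were below all AOM-DSS WT mice for 3 of the 9 genes tested (Reg3g, Saa3 and Slpi), where this held for 14.3% of all genes tested, and above them for 3 (Reg4, Wfdc2 and Pigr), where it held for 14.2%. Reg3b, not tested, was also below. Saa3 was tested only through the AOM-DSS WT mice, so these counts and the median are a description. The median log2 fold change of the tested genes was −0.11, beside 0.01 over all genes. This comparison and the one before it share the AOM-DSS WT mice, so opposite signs in them are not independent of each other. Without mouse 4, 7 genes were called, 5 lower (Lcn2, Reg3b, Reg3g, Saa3 and Slpi) and 2 higher (Reg4 and Wfdc2), and 19.2% of all genes. Without mouse 5, Pigr and Slpi were called, where 3.70% of all genes were, and without mouse 6, Retnlb and Slpi, where 5.19% were. Slpi alone was called without mouse 7 or mouse 9, where 2.92% and 0.685% of all genes were. Without mouse 8 none was, where 0.382% were.

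Whether the transgenic mice after AOM-DSS differed from Control WT mice was read from the third comparison, in which genotype and treatment cannot be told apart. Of 8 genes tested, Reg4 was called higher, where 3.92% of 15013 genes were called higher, and none was called lower, where 6.07% were. An unadjusted p under 0.05 was found for 2 of the 8, where 26% of all genes had one, and DESeq2 called Retnlb lower besides Reg4, where it called 11.9% of all genes. All transgenic mice were above all Control WT mice for 1 gene (Reg4), against 14.9% of all genes, and below them for 1 (Retnlb), against 16.3%. Reg3g stood at 1.13 ± 0.479 CPM against 0.555 ± 0.441 CPM (SD, n = 3) and Lcn2 at 1.32 ± 0.484 against 1.04 ± 0.147, with log2 fold changes of 1.03 (95% interval −0.41 to 2.47) and 0.33 (−0.45 to 1.11). Reg3b and Saa3 did not pass the filter here. The median log2 fold change was 0.30, beside 0.00 over all genes. Without Control WT mouse 1, Reg4 was called higher and Retnlb lower, where 6.25% of all genes were called, and without any other single mouse none was.

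**Figure D3:**
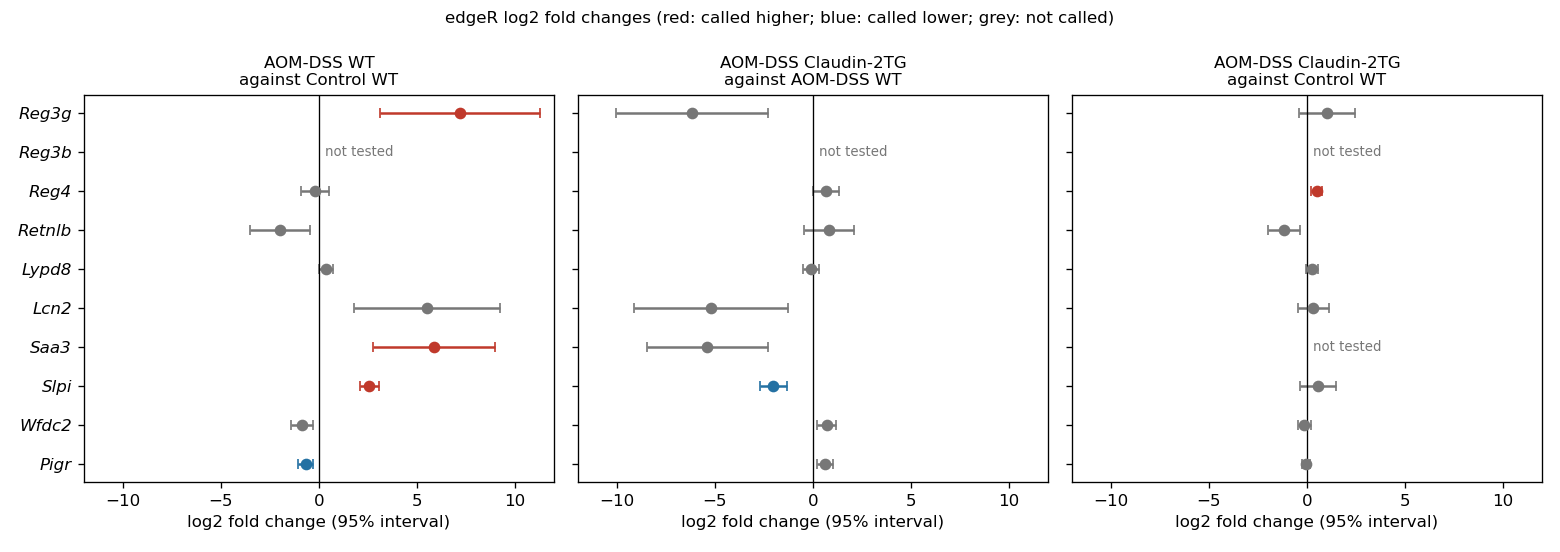
Log2 fold changes with 95% intervals by edgeR for the 9, 9 and 8 genes of the set tested in the 3 comparisons, with the others marked as not tested, red where called higher, blue where called lower and grey where not called. The intervals of Reg3g, Lcn2 and Saa3 are several log2 units wide in the first and second comparisons, that of Slpi runs from 2.11 to 3.05 in the first and from −2.72 to −1.34 in the second.

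The spread within AOM-DSS WT set these genes apart from most others. Reg3b differed 327-fold between its highest and lowest AOM-DSS WT mouse, Lcn2 194-fold, Reg3g 66.9-fold and Saa3 35.8-fold. Among all genes with a mean of at least 1 CPM the median of this ratio was 1.37 in AOM-DSS WT mice, against 1.21 in Control WT and 1.26 in AOM-DSS Claudin-2TG mice, and it reached 10-fold in 144 genes, 1.02%. Slpi (1.10-fold), Lypd8 (1.32-fold) and Pigr (1.51-fold) were near that median. Mouse 4 was the lowest of its group for 6 of the 10 genes and mouse 6 the highest for 6, with Reg3g, Reg3b, Lcn2 and Saa3 among both. This order of mice was not counted over all genes, so it is a description only.

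Other genes of the same families and pathways were counted beside the set. The shares of all genes called, 8.04% higher and 6.92% lower in AOM-DSS WT against Control WT and 2.19% higher and 7.35% lower in AOM-DSS Claudin-2TG against AOM-DSS WT, are the measure for these counts. In the WAP domain family, 6 genes other than Slpi and Wfdc2 were tested in AOM-DSS WT against Control WT, and 2 rose, Wfdc17 and Wfdc18. Wfdc1 was not called there (−0.36, adjusted p = 0.352 by edgeR). It was called lower in AOM-DSS Claudin-2TG against AOM-DSS WT (−1.09, adjusted p = 0.027) and against Control WT (−1.45, adjusted p = 0.00881). Wfdc18, a small WAP domain protein, read 12.1, 10.4 and 14.9 CPM in Control WT mice, 56.2, 212 and 451 CPM in AOM-DSS WT mice and 14.1, 13.1 and 19.5 CPM in AOM-DSS Claudin-2TG mice. It rose by a log2 fold change of 4.29 (adjusted p = 0.0187) and was lower in transgenic than in wild-type AOM-DSS mice (−3.97, adjusted p = 0.0251). All 3 AOM-DSS WT mice were above every other mouse, mouse 4 by the least.

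Of the metal-withholding genes beside Lcn2, S100a8, S100a9, Ltf and Hamp were tested in AOM-DSS WT against Control WT only because the AOM-DSS WT mice passed the filter on low counts, so their values are given as a description. S100a9, a subunit of calprotectin, read 0.762, 22.1 and 11.9 CPM in mice 4 to 6 and at most 0.304 CPM in the other mice. Ltf, lactoferrin, read 1.88, 9.46 and 9.04 CPM there (log2 fold change 3.94, adjusted p = 0.0129). In transgenic against wild-type AOM-DSS mice, where they again passed through the latter, the log2 fold changes of S100a9 and Ltf were −6.26 (adjusted p = 0.0386) and −2.93 (adjusted p = 0.029). Mouse 5 was above mouse 6 for S100a9, whereas for Lcn2 it was below.

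In the IgA secretion list, 7 genes besides Pigr were tested. Jchain, Mzb1 and Tnfsf13b rose in AOM-DSS WT mice and Ccl28, the epithelial chemokine that draws IgA plasma cells, fell. Ccl28 read 273, 263 and 219 CPM in Control WT mice, 135, 159 and 116 CPM in AOM-DSS WT mice and 289, 236 and 251 CPM in AOM-DSS Claudin-2TG mice. It thus had the groups of Pigr, and both its differences were called (log2 fold change −0.86, adjusted p = 0.0145, and 0.90, adjusted p = 0.0118). Jchain, which joins IgA into dimers, went the other way, at 41.9, 36.8 and 88.7 CPM in Control WT, 187, 429 and 388 CPM in AOM-DSS WT and 96.2, 22.2 and 36.3 CPM in AOM-DSS Claudin-2TG mice (2.61, adjusted p = 0.0163, and −2.72, adjusted p = 0.0412).

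Among 18 other antimicrobial genes tested, 9 rose in AOM-DSS WT against Control WT, with a median log2 fold change of 1.12, where 8.04% of all genes rose. Of the 9, Gp2 passed the filter on low counts through the AOM-DSS WT mice alone. In AOM-DSS Claudin-2TG against AOM-DSS WT, 2 were higher and 4 lower (median −0.93), where 2.19% and 7.35% of all genes were, and in AOM-DSS Claudin-2TG against Control WT 3 were higher and 1 lower (median 0.28), where 3.92% and 6.07% were. Lyz1, the Paneth cell lysozyme, read 3.14, 2.81 and 3.82 CPM in Control WT mice, 128, 172 and 998 CPM in AOM-DSS WT mice and 13.5, 17.8 and 8.79 CPM in AOM-DSS Claudin-2TG mice, and was called in all 3 comparisons (log2 fold changes 7.08, −5.03 and 2.04, adjusted p = 0.0125, 0.0276 and 0.00227). Unlike Lcn2, it was raised in mouse 4. Pglyrp1, a peptidoglycan recognition protein, rose from 381 to 426 CPM in Control WT to 591, 816 and 1320 CPM in AOM-DSS WT mice (1.20, adjusted p = 0.029), and Dmbt1, a mucosal scavenger protein, from 3390 to 3500 CPM to 3980, 7650 and 6620 CPM (0.84, adjusted p = 0.0443). Sprr2a3, an epithelial antibacterial protein, was higher in transgenic than in wild-type AOM-DSS mice (0.78, adjusted p = 0.0365).

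The cytokines known to induce these genes were mostly near the detection limit. Il22, Il6 and Il13 had at most 3 counts in any mouse, so a difference was not detectable at this depth. Il17a read 0.398 and 0.670 CPM in mice 5 and 6 and at most 0.0507 CPM in the others. Of 6 inducing cytokines tested in AOM-DSS WT against Control WT, Il1b and Il23a were called, both tested through the AOM-DSS WT mice alone and so a description, and Il1b read 1.78, 18.8 and 10.0 CPM in mice 4 to 6 against at most 0.886 CPM elsewhere (4.10, adjusted p = 0.0249). In AOM-DSS Claudin-2TG against AOM-DSS WT, Il1b, again tested through the AOM-DSS WT mice, had a log2 fold change of −4.00 (adjusted p = 0.0322) and Il18, an epithelial cytokine, was higher (0.58, adjusted p = 0.049). Of 25 receptor and signalling genes, 5 rose and 1 fell in AOM-DSS WT mice, where 8.04% and 6.92% of all genes did. In transgenic against wild-type AOM-DSS mice 1 was higher and 6 lower, where 2.19% and 7.35% of all genes were. Tlr2 was among those that rose and were then lower (1.19, adjusted p = 0.0369, and −1.76, adjusted p = 0.00777). Il17rc, a receptor subunit for interleukin-17, was higher in the transgenic mice (0.72, adjusted p = 0.0397), and the TNF receptor gene Tnfrsf1b (−1.55, adjusted p = 0.0462) and the transcription factor gene Cebpd (−0.84, adjusted p = 0.0396) were lower. Il10rb, a subunit of the interleukin-22 receptor, was slightly higher in AOM-DSS WT than in Control WT mice (0.38, adjusted p = 0.0491).

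The tissue held colonic epithelium in every mouse. The 8 epithelial markers summed to 15300 to 17100 CPM in Control WT, 15800 to 19400 CPM in AOM-DSS WT and 17200 to 20800 CPM in AOM-DSS Claudin-2TG mice. Their median log2 fold change was 0.19 in AOM-DSS WT against Control WT and 0.11 in AOM-DSS Claudin-2TG against AOM-DSS WT. Of 9 goblet cell markers, Clca1 was called lower and Spink4 higher in AOM-DSS WT against Control WT (−0.96 and 0.71). Of all genes, 6.92% were called lower and 8.04% higher in this comparison. The goblet cell list summed to 12500 to 14100 CPM in Control WT, 9610 to 11700 CPM in AOM-DSS WT and 10900 to 16700 CPM in AOM-DSS Claudin-2TG mice. Of 10 colonocyte markers, Car4, Aqp8 and Cldn8 were called lower and Guca2b higher in AOM-DSS WT against Control WT, beside the same shares of all genes. The colonocyte list summed to 5870, 3630 and 2700 CPM in mice 4 to 6 against 5790 to 8060 CPM in Control WT and 6640 to 9610 CPM in AOM-DSS Claudin-2TG mice. In AOM-DSS Claudin-2TG against AOM-DSS WT, edgeR called Car4, Aqp8 and Cldn8 higher (1.90, 1.84 and 1.17, adjusted p = 0.0131, 0.019 and 0.00879) and Guca2b lower (−0.67, adjusted p = 0.0455). Of all genes, 2.19% were called higher and 7.35% lower in that comparison. Wfdc2 and Pigr stood higher in it without an edgeR call, and the part of colonocytes in the levels of Wfdc2 and Pigr was not tested. In these bulk samples, fewer cells of a type and less RNA per cell cannot be told apart.

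Marker sums of neutrophils, macrophages and monocytes, Paneth cells and plasma cells were also highest in AOM-DSS WT mice 5 and 6. The 8 neutrophil markers summed to 2.08, 51.7 and 28.3 CPM in mice 4 to 6, mostly from S100a8 and S100a9, and to 0.0502 to 0.825 CPM in the other mice. The 3 of them that could be tested, S100a8, S100a9 and Csf3r, passed the filter through the AOM-DSS WT mice alone, so no count is read from them. Within that list Mpo and Ngp had at most 1 count in any mouse, while Csf3r read 6.90 CPM in mouse 5 and 1.54 CPM in mouse 6, the reverse of Lcn2, Reg3g and Reg3b. The 10 macrophage and monocyte markers summed to 167, 329 and 319 CPM in mice 4 to 6 against 118 to 185 CPM elsewhere, with 5 of 10 higher in AOM-DSS WT against Control WT, where 8.04% of all genes were. The 8 Paneth cell markers summed to 163, 282 and 1700 CPM in mice 4 to 6 and to 21.3 to 44.4 CPM elsewhere, so mouse 6 was highest here as for Reg3g. Lyz1 gave the largest part of that sum in mice 4 to 6. Ang4, of the same list, read 2.39, 8.71 and 33.0 CPM there against 17.4 to 21.9 CPM in Control WT mice. It was not called in AOM-DSS WT against Control WT (−0.37, adjusted p = 0.787 by edgeR). The 7 plasma cell markers summed to 433, 773 and 763 CPM against 282 to 366 CPM. Sdc1 made up most of this sum in the other mice. It read 228, 323 and 353 CPM in mice 4 to 6 and 235 to 328 CPM elsewhere (0.19, adjusted p = 0.512 by edgeR). Jchain read 187, 429 and 388 CPM in mice 4 to 6 and 22.2 to 96.2 CPM elsewhere. The part of these cell types in the levels of Lcn2, Saa3, Reg3g and Reg3b was not tested.

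**Figure D4:**
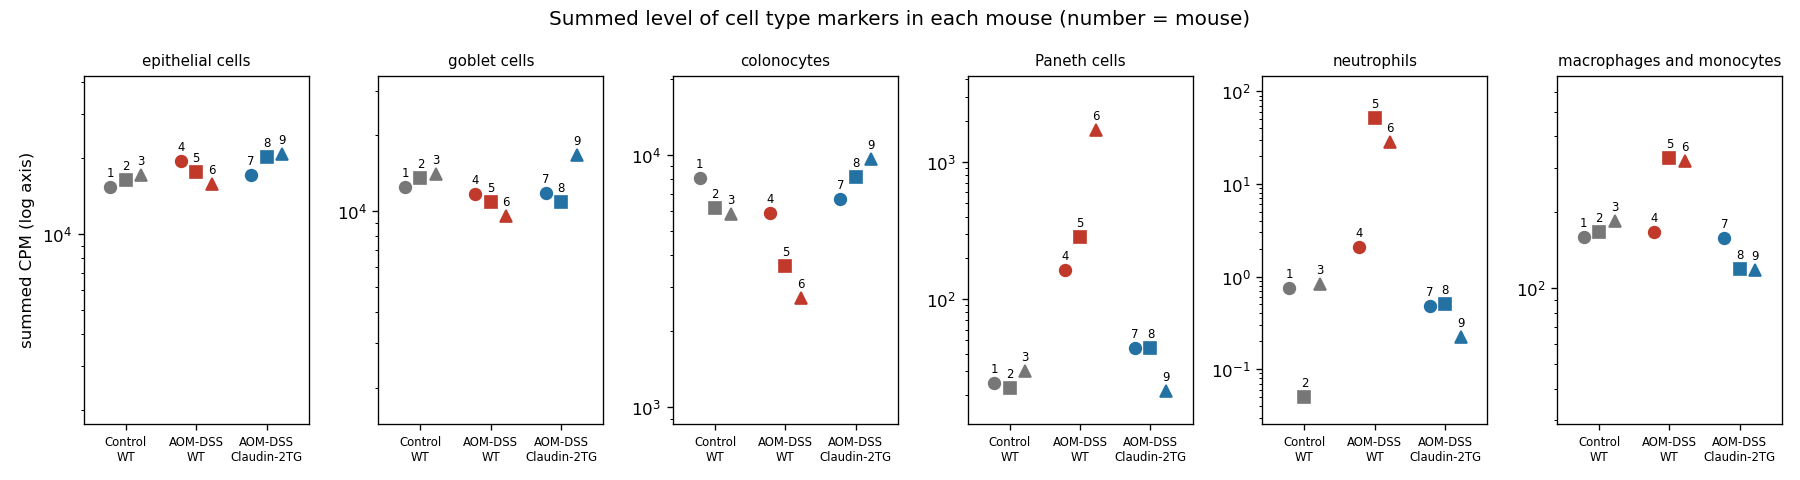
Summed CPM of 6 lists of cell type markers in each mouse, on log axes, with the mouse number beside each point. Epithelial markers lay between 15300 and 20800 CPM in all 9 mice, while neutrophil markers were highest in mouse 5 and Paneth cell markers in mouse 6.

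For each gene of the set, the genes with the most similar course over the 9 mice were found among 15708 genes, by the root mean square (RMS) difference of mean-centred log2 CPM. Reg3g was the nearest gene to Reg3b (RMS difference 0.83 on the log2 scale), followed by Serpinb11 and Arg1 (1.04 each). Reg3b itself is not among those genes, since it did not pass the filter. Of the genes that did, Tnfrsf11b, which encodes osteoprotegerin, was nearest to Reg3g (0.88), at 13.9, 78.3 and 96.5 CPM in mice 4 to 6. Next came the neutrophil marker S100a8 and Serpinb11 (0.95 each), and S100a8 read 0.559, 18.5 and 13.4 CPM in these mice. Lrg1, a secreted acute phase glycoprotein, was nearest to both Lcn2 (0.69) and Saa3 (0.59), at 3.00, 54.7 and 137 CPM in these mice and at most 4.27 CPM in the others. Saa3 was itself the next nearest to Lcn2 (0.81).

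The other genes of the set had closer but quite different neighbours. Slpi was nearest to the T cell genes Cd3d and Lat (0.34 each), both below 5 CPM in every mouse, and to Vwa2 (0.35). Wfdc2 was nearest to Aldh2, the mitochondrial aldehyde dehydrogenase (0.12), Pigr to Qsox2 (0.09), Lrp6 and Rab11fip1 (0.10 each), and Lypd8 to Ptp4a1 (0.08). Reg4 was nearest to Gm43597 (0.13) and Retnlb to Gm23935 (0.46), Gm15564 and Lars2 (0.50 each). Lars2, the mitochondrial leucyl-tRNA synthetase, read 827, 609 and 770 CPM in Control WT, 143, 129 and 345 CPM in AOM-DSS WT and 431, 427 and 366 CPM in AOM-DSS Claudin-2TG mice, which is the order of groups that Retnlb had.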

How the data were processed

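Gene expression was measured by RNA-Seq of mouse colon (Quick-RNA kit, Illumina NovaSeq6000). The deposited values are raw read counts per gene and lane, in 18 columns. The submitters' processing notes name HISAT2, featureCounts from Subread and the GRCm38 build, while the study's methods name TopHat2 for mapping and DESeq2 for testing. Versions and the strand setting are not given in the sources used here. The 2 lanes of a library agreed within sampling noise (chi-square per degree of freedom 0.995 to 1.057) and were summed, so lanes were never counted as replicates.

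Groups were taken from the genotype and treatment labels. The treatment text names AOM and DSS for the control samples too, and the treatment label was followed. Each comparison was fitted on its 6 mice with edgeR 4.0.16 (R 4.3.3): filterByExpr with a minimum count of 10 in a group and 15 in total, TMM scaling and the robust quasi-likelihood test, with Benjamini-Hochberg adjustment over all genes tested. A gene was called at an adjusted p under 0.05. The SE is the log2 fold change divided by the square root of the F statistic. Single genes were also compared by a two-sided exact permutation test over mice, for which 3 against 3 allows no p below 0.1. CPM used the TMM library sizes, log2 CPM a prior count of 2, and CPM per kb the exon length in the count table. The fits were tested on simulated data.

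All 10 genes are named. From every other list at most 4 genes are named by rule, those with the highest mean CPM among the called ones, and any further gene was picked after its values were seen. The members and lists were chosen with earlier results of these data known. Alternatives were other scalings (size alone, upper quartile, RLE), DESeq2 1.42.0, other filters, all 9 mice in 1 fit, each lane alone, each mouse left out, a call rule with a minimum log2 fold change of 1 and, added after the data were seen, exon lengths from GENCODE vM21. Upstream sequences came from RefSeq and transcripts from GENCODE vM21, and the motifs were chosen with the genes known. Exons of the 10 genes overlap no exon of another gene in that annotation, apart from 1 base of Slpi.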

Additional observations from a re-analysis of the deposited data

How the results depend on the processing

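Of 382 alternative fits of single genes of the set, 319 kept direction and side of the threshold, 26 lost a call, 32 gained one and 5 changed sign. The sign changes were all small and in uncalled values: Reg4 in AOM-DSS WT against Control WT without mouse 5 (0.07, where leaving out 1 mouse gave −0.55 at the lowest), Lypd8 in AOM-DSS Claudin-2TG against AOM-DSS WT without mouse 7 (0.01, lowest −0.26), and, in AOM-DSS Claudin-2TG against Control WT, Wfdc2 without mouse 1 (0.02, lowest −0.30) and Pigr without mouse 2 or mouse 8 (0.01 each, lowest −0.10). Slpi in AOM-DSS WT against Control WT was called in every alternative fit.

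In AOM-DSS WT against Control WT, 4 genes of the set were called. With no filter, or with at least 10 counts in every mouse, 2 were called (Pigr and Slpi), with either lane alone 3, with size scaling alone 5, with DESeq2 6 and with all 9 mice in the fit 7. Of all genes, 15% were called in this comparison, 9.4% with no filter, 13.8% with at least 10 counts in every mouse, 13.7% and 12.8% with each lane, 14.8% with size scaling, 20.9% with DESeq2 and 20.2% with all 9 mice. Leaving out 1 mouse gave 1 to 7, with 7 without mouse 4 and Slpi alone without any 1 Control WT mouse. In AOM-DSS Claudin-2TG against AOM-DSS WT, 1 was called, and 2 with upper quartile or RLE scaling (Saa3 added), 6 with DESeq2, 3 with no filter and 5 with all 9 mice, where 9.54% of all genes were called in this comparison, 9.8% and 9.56% with these scalings, 13.9% with DESeq2, 6.53% with no filter and 13.6% with all 9 mice. Leaving out 1 mouse gave 0 to 7, with 7 without mouse 4 and 0 without mouse 8. In AOM-DSS Claudin-2TG against Control WT, 1 was called, and 0 with a minimum log2 fold change of 1, with size scaling alone or with all 9 mice, 2 with DESeq2 or no filter, and 0 to 2 when 1 mouse was left out. There 10% of all genes were called, 4.55% with the minimum fold, 10.6% with size scaling, 2.83% with all 9 mice, 11.9% with DESeq2 and 9.91% with no filter.

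Over all genes, 2310 were called in the first comparison (1289 with a minimum log2 fold change of 1, and 135 to 4080 without 1 mouse). In the second 1421 were called (908 with at least 10 counts in every mouse, 2136 with all 9 mice, and 58 to 2894 without 1 mouse). In the third 1501 were called (683 with a minimum log2 fold change of 1, 2567 with no filter, 445 with all 9 mice, and 525 to 1383 without 1 mouse). The cause of these differences was not tested. Fits without mouse 4, which was singled out by its levels of these genes, support no call, and Reg3b entered them only through the mice in which it is high. With the exon length of GENCODE vM21, chosen after seeing the data, Saa3 per kb was 4.91-fold lower in every group. No paired analysis was possible because the groups share no replicate numbers. Reg3b, Reg3g, Lcn2 and Saa3 had 0 to 32 counts in Control WT and AOM-DSS Claudin-2TG mice. With 3 mice in each group, the parts of counting error and of the spread between mice in the precision for these genes were not tested.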

Other observations

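The position of the tissue along the colon can be read from Hox genes, of which 6 were measured. They summed to 865 to 1070 CPM in Control WT, 790 to 1100 CPM in AOM-DSS WT and 1080 to 1130 CPM in AOM-DSS Claudin-2TG mice. Of them, 1 was called higher in AOM-DSS WT against Control WT, where 8.04% of all genes were, and 3 were called higher in AOM-DSS Claudin-2TG against Control WT, where 3.92% of all genes were, the comparison in which Reg4 was called. Hoxb13 made up most of the sum, and mouse 6, the highest for Reg3g, Reg3b, Lcn2 and Saa3, stood apart in Hoxd12, at 1.81 CPM against 13.2 to 20.9 CPM in the other 8 mice. The part of tissue position in the levels of these genes was not tested. Stromal lists also differed between mice. The 7 fibroblast markers summed to 454, 1130 and 521 CPM in mice 4 to 6 and to 187 to 269 CPM in AOM-DSS Claudin-2TG mice. In the latter, 2 of 7 were called lower against either other group. Of all genes, 7.35% were called lower against AOM-DSS WT and 6.07% against Control WT. The 7 smooth muscle markers summed to 2040 to 4070 CPM in Control WT, 1080 to 2950 CPM in AOM-DSS WT and 983 to 1510 CPM in AOM-DSS Claudin-2TG mice, with 3 of 7 lower in AOM-DSS Claudin-2TG against Control WT, where 6.07% of all genes were.

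A pair of genes that respond to cytokines in epithelium were also highest in mice 5 and 6, but with mouse 5 above mouse 6, the reverse of Reg3g, Reg3b, Lcn2 and Saa3. Nos2, the inducible nitric oxide synthase, read 307 and 127 CPM in mice 5 and 6 and 2.16 to 11.1 CPM in all other mice, and Duoxa2, the maturation factor of the hydrogen peroxide producing oxidase DUOX2, read 158 and 139 CPM there and 26.7 to 83.7 CPM elsewhere. Both rose in AOM-DSS WT against Control WT (log2 fold change 5.06, adjusted p = 0.035, and 1.86, adjusted p = 0.0371). Duoxa2 was also higher in AOM-DSS Claudin-2TG against Control WT (0.94, adjusted p = 0.0347). These genes were picked after their values were seen.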
